A study of Mus musculus with 4 samples.

Results

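The mitochondrial ribosomal protein genes are the nuclear genes whose symbols start with Mrpl or Mrps followed by a number. A gene was a member when a probe set of the array carried that symbol and no other, and each gene was read at its probe set with the highest mean log2 value. This gave 74 genes, 47 named for the large subunit (Mrpl) and 27 for the small subunit (Mrps), of 12393 genes with a single symbol on the array. All 74 passed the filter on low values through that probe set, and 41 of them had only 1 probe set.

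Mitochondria carry ribosomes of their own, which translate the few proteins encoded by mitochondrial DNA, all of them parts of the respiratory chain and ATP synthase. The ribosomal RNAs come from mitochondrial DNA, whereas every protein of the particle is encoded in the nucleus, made in the cytosol and imported. Many of these proteins have a counterpart in the bacterial ribosome, and others were added in the line that led to mitochondria, so that the mammalian particle holds more protein and less RNA than a bacterial one.

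The cells were P19, mouse embryonal carcinoma cells that turn neural once aggregated with retinoic acid. The control group was unmodified P19 cells and the other group was P19 cells that constitutively express human LIN28A, which binds RNA and keeps let-7 microRNAs from maturing. Cells of both groups were aggregated in Petri dishes in serum-containing medium with 5e-07 M all-trans retinoic acid and read on day 4, with 2 arrays per line, labelled as repeats and called number 1 and number 2 here. Neither the promoter that drives LIN28A nor whether the line is 1 clone is stated in the sources used here.

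The 4 arrays had median intensities of 29.0 to 38.6. The listed markers of P19 neural differentiation varied in level. Over the arrays Sox2 was at 1294.6 to 1902.3, Neurog1 at 493.2 to 559.1 and Tubb3 at 372.4 to 644.1. Nes was at 115.9 to 237.3 and Pax6 at 106.4 to 212.1. Map2 lay between 8.6 and 116.8, and Hoxb1 was low throughout, at 13.1 to 23.2. The summed level of 5 endoderm markers was at most 46.5, and that of 2 blood markers at most 37.3. The sum of 3 fibroblast markers (Col1a1, Col3a1 and Acta2) was higher in the LIN28A arrays, at 218.7 and 250.6, than in the control arrays, at 133.5 and 55.2, and its part in the line comparison below was not tested. The transgene is human, so the 2 mouse Lin28a probe sets do not check it. One was at 30.7 and 76.2 in control against 56.1 and 37.5 in LIN28A cells, and the other at 28.8 and 15.5 against 7.0 and 8.6, where both LIN28A arrays lay below both control arrays. The labels do not say that the arrays came from separate cultures, so a p-value reflects array-to-array spread alone, possibly technical.

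Short stretches of promoter are shown for 5 members, chosen because they hold a match to a motif searched for. The promoters of 65 of the 74 genes were found in RefSeq's table (build GRCm38.p6), each running from 250 bases before to 50 bases after the start of transcription. They were searched on both strands for GCGCA and GCGC separated by any 1 base, a core of the NRF1 site, for CCGGAAG, a core of the ETS site that GABP binds, and for AAGATGGC, a core of the YY1 site. All of these factors are known regulators of nuclear genes for mitochondria. The stretches below come from members described further on, read 5′ to 3′ on the strand of the gene and ending at or before its start of transcription, with the matching letters in capitals.
Mrps21, NRF1 match on chr3:95871566-95871635, minus strand: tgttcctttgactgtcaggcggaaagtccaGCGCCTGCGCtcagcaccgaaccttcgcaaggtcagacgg
Mrpl39, NRF1 match on chr16:84735330-84735399, minus strand: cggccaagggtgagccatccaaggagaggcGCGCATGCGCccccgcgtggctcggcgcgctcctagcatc
Mrpl58, ETS match on chr11:115403705-115403751, plus strand: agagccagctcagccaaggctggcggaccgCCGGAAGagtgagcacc
Mrps18a, ETS match on chr17:46110948-46111003, plus strand: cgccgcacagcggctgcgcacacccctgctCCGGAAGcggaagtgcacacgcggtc
Mrpl36, YY1 match on chr13:73330949-73331008, plus strand: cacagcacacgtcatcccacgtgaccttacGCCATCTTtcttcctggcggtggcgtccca

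Matches began 91 bases before the start of transcription in Mrps21, 125 in Mrpl39, 17 in Mrpl58, 26 in Mrps18a and 30 in Mrpl36. At least 1 of the 3 motifs was present in 39 of the 65 promoters (60.0%), against 31.2% of the 7210 promoters of genes tested on these arrays and 19.5% of 17492 promoters of protein-coding genes. The ETS core was in 35.4% of the members' promoters (19% of those of genes tested), the NRF1 core in 18.5% (11.2%) and the YY1 core in 16.9% (5.02%). Promoters of cytosolic ribosomal protein genes held at least 1 of the motifs in 61.0% and those of nuclear genes for oxidative phosphorylation in 51.6%. The median log2 difference between the lines was -0.065 for the 12 genes with the NRF1 core and 0.01 for the 53 without. It was -0.01 for the 23 with the ETS core and 0 for the 42 without, and -0.05 for the 11 with the YY1 core and 0.005 for the 54 without. A match describes these letters only and is not a shown binding site.

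Between LIN28A and control cells no member passed the test, which with 2 arrays a line could not call differences of the size seen here. The SE of a member's difference was 0.27 to 1.06, so no call does not show that the lines were alike. The median log2 difference, LIN28A minus control on the log2(value + 16) scale, was -0.01 over the 74 genes, with 36 above 0 and 38 below 0, and it was 0.015 within number 1 (40 above 0) and 0.002 within number 2 (37 above 0). Over all 15838 probe sets tested the median was -0.049 and 43.6% lay above 0, with 41.1% in number 1 and 49.6% in number 2. No member differed by 1.5-fold, the largest difference being 0.50, whereas 2.51% of all probe sets lay past 1.5-fold upwards and 5.2% downwards, or 2.93% and 4.04% among the probe sets over the 50th percentile of mean level. The SD of the difference over genes was 0.24 for the members and 0.34 for all probe sets. Limma's test called 0 members in either direction (0.0% of all probe sets), and no member reached an unadjusted p under 0.05 (0.442% of all probe sets higher and 1.21% lower), the lowest being 0.12. Over all probe sets 70 lay higher and 192 lower at that p, and the split was 167 and 107 with median centring and 122 and 169 with quantile normalization. In RNA from whole aggregates, fewer cells of a type and less RNA per cell cannot be told apart.

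**Figure D1:**
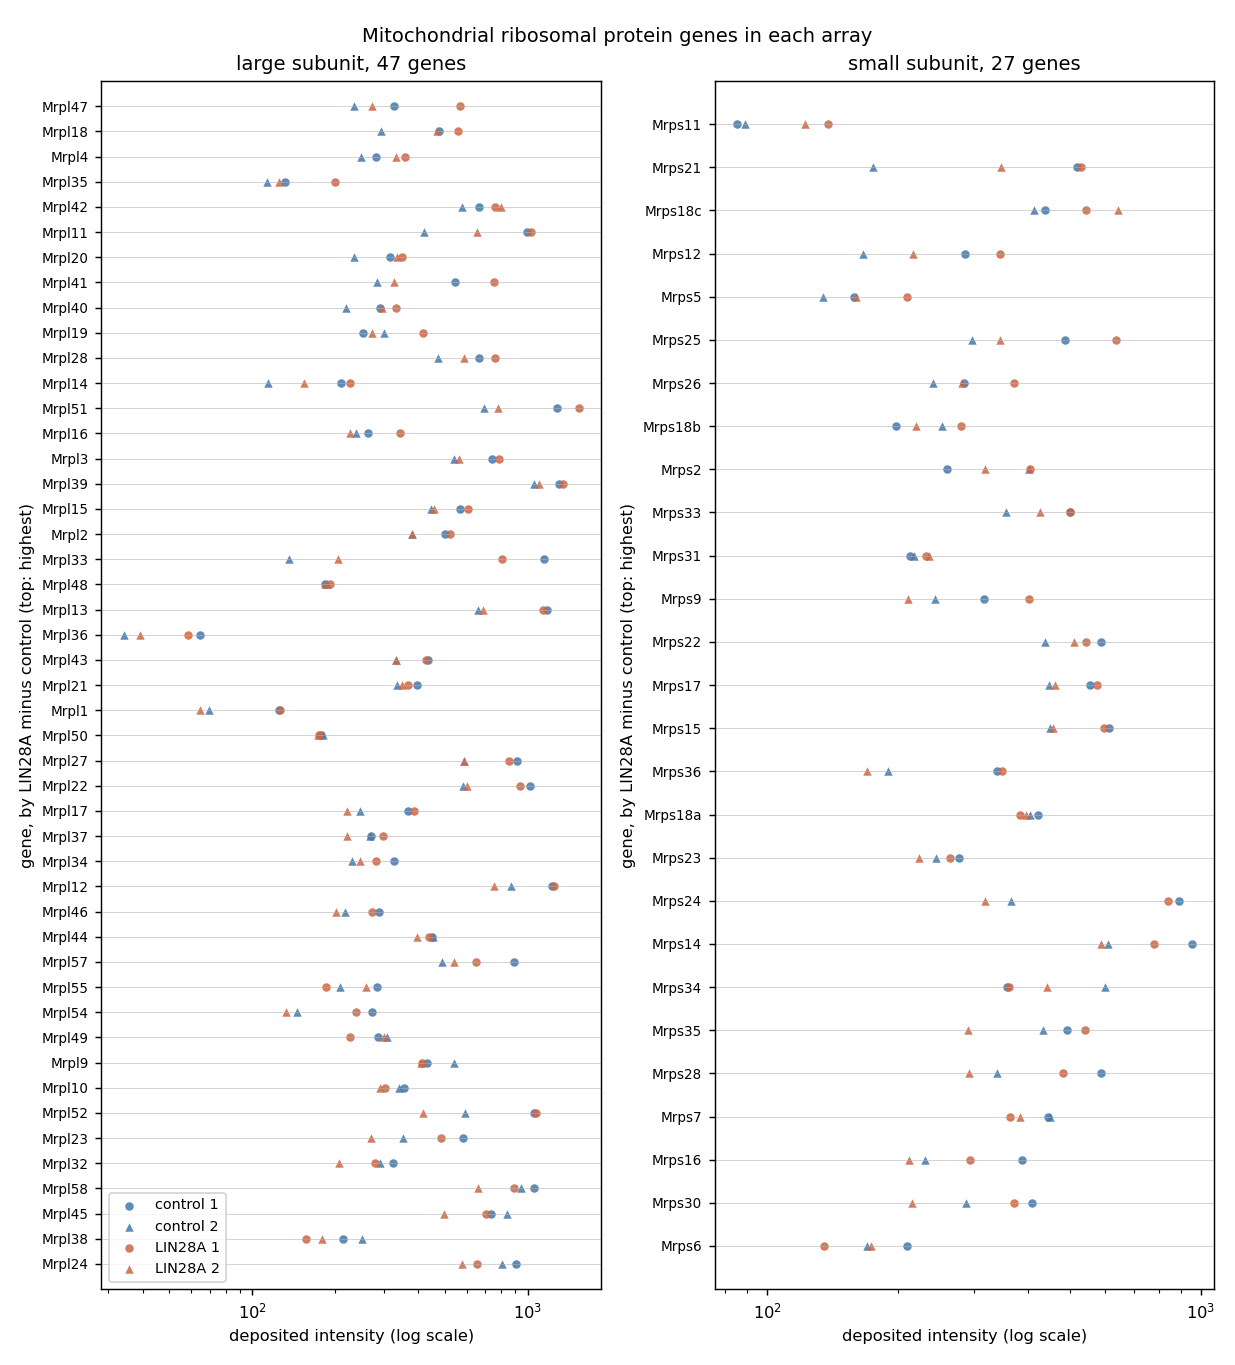
Deposited intensity (log axis) of each of the 74 genes in the 4 arrays, with the 47 large subunit genes on the left and the 27 small subunit genes on the right, ordered by the difference between the lines. Circles are number 1, triangles number 2, blue control and orange LIN28A; for most genes the symbols pair by shape rather than by colour, and Mrpl33 has the widest gap between shapes.

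The level of the median depended on how the arrays were scaled. Centring each array on its median moved the median of all probe sets by 0.127, and the members' median became 0.117, with 52 of 74 above 0. Quantile normalization gave -0.038. Relative to all probe sets the members lay at 0.039 as deposited, 0.039 with centring and -0.05 with quantile normalization. The 4 fits that leave out 1 array gave 0.212 without control replicate 1, -0.162 without control replicate 2, -0.172 without LIN28A replicate 1 and 0.236 without LIN28A replicate 2. Those fits leave the lines with unequal numbers, so the difference between numbers described below enters them.

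The 47 large subunit genes had a median of -0.03, with 22 above 0, and the 27 small subunit genes a median of 0.048, with 14 above 0. Large minus small was -0.079 over the 4 arrays, -0.023 within number 1 and 0.034 within number 2, so its sign differed between the numbers. The middle 50% of genes ran from -0.15 to 0.22 in the large and from -0.19 to 0.21 in the small subunit. Structures of the mammalian particle place the proteins of Mrps30 and Mrps18a in the large subunit despite their names, and with these genes moved the difference was -0.087, with -0.054 and -0.026 within the numbers.

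Placement of the arrays was counted gene by gene. In 8 of 74 members both LIN28A arrays exceeded both control arrays (10.8%, against 10.0% of all probe sets), and in 11 they lay below (14.9%, against 15.5%). In the large subunit 4 genes lay above and 9 below, and in the small subunit 4 above and 2 below. These shares of the whole group are near the background, and the split between subunits has no test. The line difference had the same sign in both numbers in 49 of 74 members (66.2%, against 57.5% of all probe sets), 26 above 0 (24.2% of all probe sets) and 23 below (33.3%). Across the 74 genes, which are not independent replicates, the differences of number 1 and number 2 correlated with r = 0.25.

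**Figure D2:**
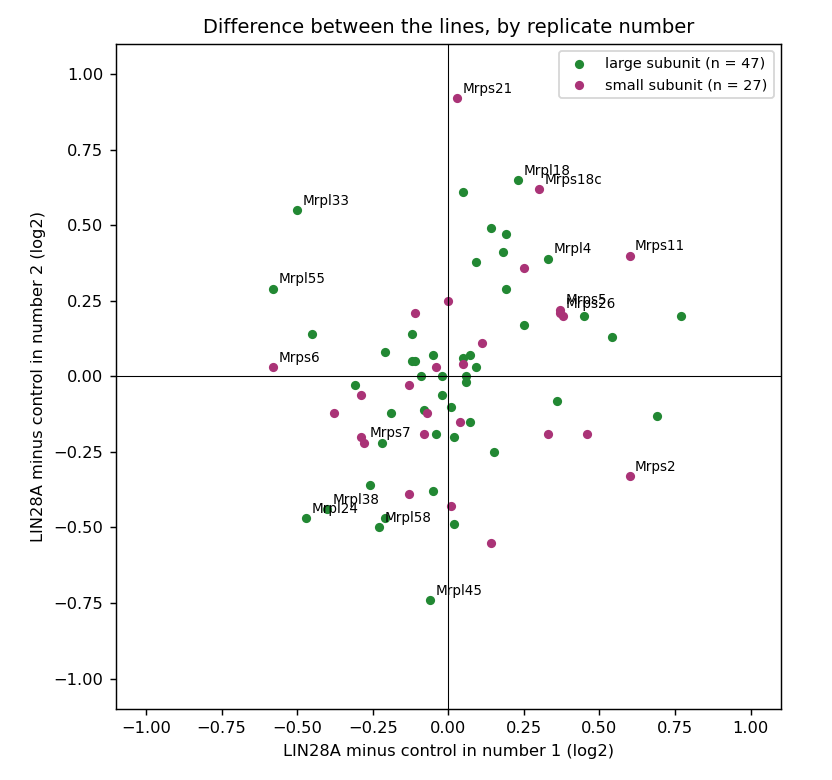
Difference between LIN28A and control (log2) in number 1 (x axis) and number 2 (y axis), 1 point per gene, green for the large and purple for the small subunit. Mrps11, Mrps18c, Mrpl18 and Mrpl4 lie to the upper right, Mrpl24 and Mrpl38 to the lower left, and Mrpl33, Mrpl55 and Mrps2 lie where the numbers have opposite signs.

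Among large subunit genes the smallest p-values belonged to genes on either side of 0. Mrpl24, the counterpart of a bacterial protein that binds ribosomal RNA early in assembly, read 910 and 807.4 in control 1 and 2 and 654.1 and 577.3 in LIN28A 1 and 2. Both LIN28A arrays lay below both control arrays by the same log2 difference, -0.47 in each number (-0.47 ± 0.28 SE, limma's adjusted p = 1.0). Mrpl38, a protein of the central protuberance, read 213 and 249.6 in control against 157.2 and 179.2 in LIN28A cells. Its difference was -0.42 ± 0.29 SE, again alike in number 1 (-0.40) and number 2 (-0.44). Its dimmer probe set, at 21.7 and 3.6 against 12 and 2.9, was mostly under the pseudocount and gave -0.43 and -0.05 by number.

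Mrpl45, which lies at the exit of the peptide tunnel by the inner membrane, read 736.5 and 840.6 in control against 705.5 and 498.2 in LIN28A cells. LIN28A 2 alone stood well below, with differences of -0.06 in number 1 and -0.74 in number 2. Mrpl58, a peptidyl-tRNA hydrolase that frees stalled ribosomes and is built into the particle, read 1049.8 and 944.3 against 892.6 and 661.5, a difference of -0.37 ± 0.30 SE. Its LIN28A arrays lay below both control arrays, with -0.23 and -0.50 by number. Mrpl10, the stalk base protein, lay at -0.22 in each number, and Mrpl32, Mrpl9, Mrpl44 and Mrpl50 were the remaining large subunit genes with both LIN28A arrays below both control arrays, at -0.34 to -0.04.

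On the other side of 0, Mrpl4, the counterpart of a protein that lines the bacterial peptide tunnel, read 280.5 and 248.6 in control against 357.5 and 331.5 in LIN28A cells. The groups did not overlap, and the difference of 0.36 ± 0.28 SE was 0.33 and 0.39 by number. Mrpl18, the counterpart of a bacterial protein that binds 5S ribosomal RNA, read 475.8 and 293.7 against 559.9 and 469.1. Its groups overlapped, since control 1 lay above LIN28A 2, although the difference lay above 0 in both numbers (0.23 and 0.65). Mrpl20, Mrpl40 and Mrpl42 were the other large subunit genes with both LIN28A arrays above both control arrays, at 0.32, 0.30 and 0.33. Mrpl47, chosen after its values were seen because it had the highest difference of the large subunit (0.48 ± 0.42 SE), read 325.7 and 234.8 against 565.5 and 272, so that LIN28A 1 stood apart from the other arrays.

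In the small subunit, Mrps11 had the largest difference of all members. Its protein is the counterpart of bacterial S11 on the platform of the subunit. It read 85.4 and 88.9 in control against 138 and 122.1 in LIN28A cells, which did not overlap. The difference was 0.50 ± 0.28 SE (0.60 in number 1 and 0.40 in number 2, limma's adjusted p = 1.0), and 0.06 at its dimmer probe set, which read at most 16.4. Mrps5, a counterpart of bacterial S5 at the entry of the messenger RNA, read 158.9 and 134.9 against 209.7 and 160.3, a difference of 0.30 at this probe set and -0.10 at its other. Mrps26, which has no bacterial counterpart, read 283.8 and 241.8 against 371.3 and 282.1 (0.29 ± 0.30 SE). Its control 1 lay just above LIN28A 2.

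Mrps7, a counterpart of a bacterial protein that starts the folding of the head of the small subunit, read 445.4 and 448.9 in control against 363.6 and 382.9 in LIN28A cells. The groups did not overlap, and the difference of -0.25 ± 0.27 SE was -0.28 and -0.22 by number. Mrps6 read 210.4 and 169.9 against 135.3 and 173.8, with a difference of -0.58 in number 1 and 0.03 in number 2. Mrps12, a protein of the decoding centre, read 286 and 166.4 against 344.1 and 217.5 (0.31 ± 0.39 SE), so that the arrays of the lines overlapped while both numbers lay above 0.

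The S18 genes lay on both sides of 0. The mammalian genome holds 3 of them, whose proteins sit at different places in the ribosome. Mrps18c, the counterpart of bacterial S18 proper, read 438 and 413.6 in control against 542.9 and 643.3 in LIN28A cells, with no overlap (0.46 ± 0.28 SE; 0.30 and 0.62 by number). Mrps18b read 198.3 and 253.3 against 279.4 and 220.7, with 0.46 in number 1 and -0.19 in number 2. Mrps18a, in the large subunit, read 422.3 and 404.3 against 383.4 and 395.6, a difference of -0.08 that became 0.045 under median centring. Mrps30, the other large subunit protein with a small subunit name, read 408.2 and 287.7 against 371.5 and 216.1 (-0.26 ± 0.38 SE), and lay below 0 in both numbers. Differences between these genes were not tested.

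The 3 probe sets with the highest mean were those of Mrpl39, Mrpl12 and Mrpl51, and the 2 with the lowest those of Mrpl36 and Mrpl1. Intensity also depends on the probe set, so these levels do not rank the transcripts. Mrpl39 read 1293.6 and 1054.6 in control against 1341.3 and 1102.3 in LIN28A cells, a difference of 0.06. Mrpl12, whose protein forms the flexible stalk that recruits translation factors, read 1224.5 and 869.7 against 1240.2 and 757.3 (-0.09, and 0.038 under median centring). Mrpl51 read 1281.8 and 693.5 against 1528.2 and 779.5. Mrpl36 read 64.7 and 34.3 against 58.3 and 39.3, and Mrpl1, counterpart of bacterial L1, read 125.3 and 69.9 against 126 and 64.4. In all of these genes both arrays of number 1 lay above both of number 2, and the lines lay close together within each number.

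Members with several probe sets gave a check within the array. Of 30 members with more than 1 probe set past the filter, 15 had probe sets on opposite sides of 0. For Mrpl15 the 5 probe sets ran from -0.05 to 0.06, for Mrpl13 the 3 from -0.08 to 0.12, for Mrpl1 the 2 from -0.04 to 0.14 and for Mrpl11 the 4 from -0.02 to 0.33. The probe sets of Mrpl11 on the positive side, at 0.20 to 0.33, were its 3 brighter ones. These 4 genes were the first by symbol, and others disagreed more widely. Probe sets ran from -0.37 to 0.21 for Mrpl51, -0.27 to 0.14 for Mrps2, -0.1 to 0.3 for Mrps5 and -0.11 to 0.28 for Mrpl28. Mrpl11, Mrpl15, Mrpl19, Mrpl37, Mrpl38, Mrps12 and Mrps24 were read at probe sets whose names end in _s_at or _x_at, which can pick up more than 1 transcript, so their values are less certain.

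The replicate numbers differed more than the lines did. Number 2 minus number 1 had a median log2 difference of -0.38 in control and -0.397 in LIN28A cells over the 74 members, against 0.024 and 0.116 over all probe sets. Both arrays of number 2 lay below both arrays of number 1 in 47 of 74 members (63.5%, against 23.7% of all probe sets) and above in 2 (2.7%, against 33.6%). Number 2 lay below number 1 in the control pair and in the LIN28A pair in 55 members (74.3%, against 30.8% of all probe sets). Averaged over the lines the members' median was -0.355, and it was -0.443 under quantile normalization and -0.507 under median centring. The numbers hold 1 array of each line, and this difference was given no test.

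**Figure D3:**
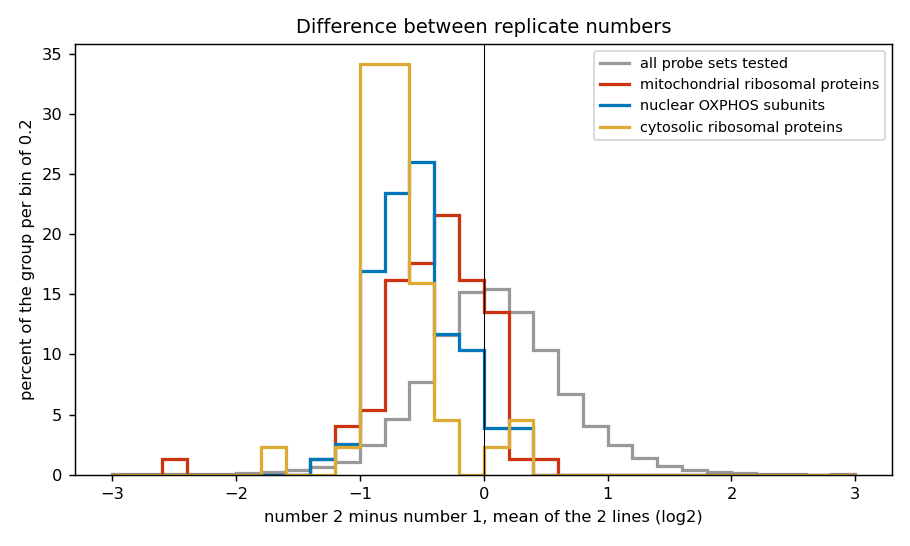
Share of genes (y axis, percent per bin of 0.2) by their log2 difference between number 2 and number 1, averaged over the lines (x axis). All probe sets tested (grey) centre near 0, whereas mitochondrial ribosomal protein genes (red), nuclear oxidative phosphorylation genes (blue) and cytosolic ribosomal protein genes (yellow) lie mostly below 0.

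Mrpl33, the counterpart of a small bacterial protein by the tRNA exit site, showed the widest difference between numbers. It read 1142.2 in control 1 and 135.6 in control 2, and 805.2 in LIN28A 1 and 205.5 in LIN28A 2. The arrays of number 1 were high in both lines, and the line difference was -0.50 in number 1 and 0.55 in number 2. Mrps21 read 517.7 and 175.1 in control against 528.8 and 346.3 in LIN28A cells. Control 2 was the low array, so its line difference was 0.03 in number 1 and 0.92 in number 2. By the difference between numbers averaged over the lines, Mrpl33 (-2.41) was followed by Mrps24 (-1.3), Mrpl52 (-1.07), Mrps21 (-1.04) and Mrpl41 (-1.03). Of these, Mrps24, Mrpl52 and Mrpl41 were chosen after their values were seen.

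Mrps34 (0.50), Mrpl49 (0.24) and Mrpl38 (0.19) lay furthest the other way. Mrps34 read 357.7 and 600.7 in control against 361 and 441.1 in LIN28A cells. Mrps2 and Mrpl55 had opposite signs of the line difference. Mrps2 read 260 and 402.7 against 403.7 and 317.3, and Mrpl55 read 284.9 and 209.1 against 185 and 259.2. In 14 of the 74 members the line differences of the numbers were more than 0.5 apart, and in 25 they had opposite signs.

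The difference between numbers was also taken by class, with no test between classes. In the large subunit the 28 genes with a bacterial counterpart had medians of -0.465 in control and -0.483 in LIN28A cells, and the 18 without one -0.246 and -0.312. In the small subunit the medians were -0.354 and -0.377 for 15 genes with a counterpart and -0.218 and -0.221 for 9 without. Between the lines the same classes had medians of 0.017 and -0.073 in the large subunit and 0.048 and 0.05 in the small subunit, and 4 genes (Mrpl55, Mrps18a, Mrps18b and Mrps36) were not classed. Mrps36 is now assigned to the oxoglutarate dehydrogenase complex and read 338.5 and 189.9 in control against 347.3 and 169.9 in LIN28A cells. Quality values moved with the numbers too: an 18S ribosomal RNA control probe set was at 676.6 (control) and 136.3 (LIN28A) in number 1 but at 9.2 and 11.3 in number 2, and a BioB spike-in at 392.5 and 246.6 but at 147.9 and 155.6. The pluripotency gene Pou5f1 was at 30.3 (control) and 28.7 (LIN28A) in number 1 but at 374.2 and 775.2 in number 2. Other pluripotency markers did not move with it. Sall4 was at 16.4 and 194.2 in number 1 and at 2.1 and 83.1 in number 2. Both of its LIN28A arrays thus lay above both control arrays. Nanog was at 70.8 and 10.4 against 5.7 and 37.8, and Zfp42 was at most 5.8. The part of these quality values and markers in the result was not tested.

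Genes that lie head to head share the DNA between their starts. Of the 65 members with a promoter in the table, 21 (32.3%) had the start of a protein-coding gene on the other strand, running away from theirs, within 1000 bases, against 11.9% of genes tested and 7.49% of all protein-coding genes. One such pair joins 2 members, Mrpl46 and Mrps11, whose starts are separated by the 41 bases shown here on the strand of Mrps11. None of the 3 motifs lies wholly within them, although the longer promoter searched for Mrps11 holds a YY1 match.
Mrpl46 to Mrps11, chr7:78783090-78783130, plus strand of GRCm38.p6: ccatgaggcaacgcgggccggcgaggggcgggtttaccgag

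Despite that short shared stretch Mrpl46 read 287.3 and 218 in control against 271.5 and 201.1 in LIN28A cells, a difference of -0.09, while Mrps11 lay at 0.50. The difference between the pair was not tested. Among 17 member genes whose partner was measured, member and partner lay on the same side of 0 in 6. The pair of Mrpl46 and Mrps11 enters this count from both sides, and no share over other pairs was taken. Some partners were dim, such as Helq beside Mrps18c at 3.3 to 17.0, so their sign means little. The pairs named next were chosen after their values were seen. Mrpl18 lay at 0.44 and its partner Tcp1, a chaperonin subunit, at -0.20. Mrpl47 lay at 0.48 and Ndufb5, a complex I subunit, at -0.19. Mrps12 lay at 0.31 and Sars2, the mitochondrial seryl-tRNA synthetase, at -0.19. Mrpl51 and the condensin gene Ncapd2, in contrast, lay at 0.21 and 0.34, both above 0 in each number.

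Other proteins act with this ribosome, and lists of them were set beside it. No gene of these lists passed limma's test after adjustment (0.0% of all probe sets), while 1 lay above and 1 below 0 at an unadjusted p under 0.05. Of 4 mitoribosomal proteins with other names, 2 lay above and 2 below 0. Among them Ptcd3, which brings messenger RNA to the small subunit, read 271.8 and 241.1 in control against 401 and 319.2 in LIN28A cells, with no overlap (0.46 ± 0.29 SE). Dap3, Chchd1 and Gadd45gip1 lay at -0.03, -0.18 and 0.11.

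Of 8 genes listed as translation factors, 3 lay above 0 and 5 below, with a median of -0.158. The list also holds Oxa1l and the formyltransferase Mtfmt (-0.14), which are not translation factors, and both lay below 0. Oxa1l, which inserts the newly made proteins into the inner membrane, read 244.4 and 489.6 in control against 166.3 and 184 in LIN28A cells. The LIN28A arrays were the low ones, with differences of -0.51 and -1.34 by number (-0.93 ± 0.39 SE, limma's adjusted p = 1.0). Tufm, the elongation factor that delivers tRNA, read 81.6 and 85.3 against 114.2 and 100.4 (0.31), and Mtres1 lay at 0.35. Of 22 assembly factors, 16 lay below 0 (median -0.211, with -0.072 and -0.237 by number) and 7 had both LIN28A arrays below both control arrays (31.8%, against 15.5% of all probe sets). Mrm1, a methyltransferase for the ribosomal RNA, lay at -0.37, Mterf3 at -0.31 and C1qbp at -0.35.

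Of 11 genes listed as aminoacyl-tRNA synthetases of mitochondria, 8 lay below 0 and 3 above (27.3%, against 43.6% of all probe sets). The list also holds Gatb, Gatc and Qrsl1, which are amidotransferase subunits and not synthetases. The median of the list was -0.266 (-0.304 and -0.07 by number). In 5 of the 11 both LIN28A arrays lay below both control arrays (45.5%, against 15.5% of all probe sets). In 2 they lay above (18.2%, against 10.0%), and these were Gatc (0.34) and Qrsl1 (0.33). Medians of the lists were taken at the deposited scaling only, and median centring moved that of all probe sets by 0.127. Fars2 read 113.8 and 130.1 in control against 86.5 and 82.3 in LIN28A cells (-0.46 ± 0.28 SE), and Ears2 and Pars2 lay at -0.46 and -0.37 with no overlap either. Of 20 genes for replication, transcription and RNA of mitochondrial DNA, 12 lay above 0 (60.0%, against 43.6% of all probe sets). By number, 14 did in number 1 (median 0.201) but 6 in number 2 (median -0.125). Fastkd5 lay at 0.33 and Polg, the catalytic subunit of the DNA polymerase of mitochondria, at 0.25, whereas its accessory subunit Polg2 lay at -0.52. Of 12 transcription factors and cofactors of nuclear genes for mitochondria, 8 lay above 0, with 9 in number 1 (median 0.265) and 5 in number 2 (median -0.209). They include Tfam (0.06, with 0.26 and -0.15 by number), a factor of mitochondrial DNA that is also counted among the 20 genes above. Hcfc1, a transcriptional cofactor, read 317.4 and 418.1 against 575.3 and 676.6 (0.75 ± 0.30 SE, limma's adjusted p = 1.0), and Myc lay at 0.46. The coactivator Ppargc1a read 22.2 and 12.3 against 3.7 and 3.4 (-0.75 ± 0.30 SE), values that lie mostly under the pseudocount. Hcfc1 and Ppargc1a were the only genes of the lists with an unadjusted p under 0.05 in limma's test.

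**Figure D4:**
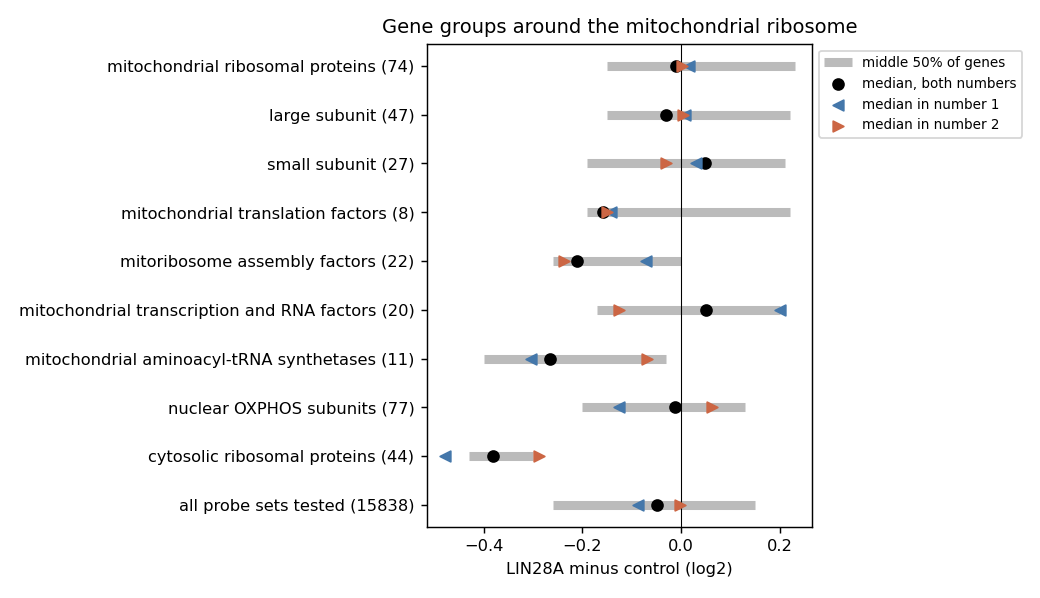
Median difference between LIN28A and control (log2, x axis) for each gene group, with the number of genes tested in brackets. Black points are medians over both numbers, blue and orange triangles medians in number 1 and number 2, and grey bars the middle 50% of genes; the mitochondrial ribosomal protein genes lie at -0.01 and the cytosolic ribosomal protein genes at -0.38.

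The cytosolic ribosome and the respiratory chain were the closest groups for comparison. Of 44 cytosolic ribosomal protein genes past the filter (47 measured) 40 lay below 0 between the lines, with a median of -0.38, against 8932 of the 15838 probe sets. Both LIN28A arrays lay below both control arrays in only 3 of the 44 (6.82%, against 15.5% of all probe sets). Of 77 nuclear oxidative phosphorylation genes (79 measured) 42 lay below 0, with a median of -0.013. The members, at -0.01, lay beside the latter. Between numbers all of these groups lay the same way, with medians in control and LIN28A cells of -0.811 and -0.604 for the cytosolic ribosome, -0.648 and -0.5 for oxidative phosphorylation, and the smaller -0.38 and -0.397 for the members. The difference between the groups was not tested, and their probe sets had median log2 values of 12.42, 10.28 and 8.59.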

How the data were processed

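The authors deposited 1 table of 22690 probe sets on 4 arrays, in linear intensity values that have a trimmed mean of 150.1 in every array (2% cut at each end); per the labels' protocols, oligo(dT)-primed cRNA was hybridised to Affymetrix arrays. The software, the scaling and detection calls are not given in the sources used here. Gene names came from the platform's annotation. Control probe sets (64) were left out, values were turned into log2(value + 16), and probe sets under the 30th percentile of the mean (a value of about 8.04) were removed, which left 15838. The lines were contrasted in limma 3.58.1 under R 4.3.3 (lmFit, eBayes, no block, Benjamini-Hochberg adjustment at 0.05). On simulated data, planted 1.5-fold changes were never called. With the difference between numbers present, 0% of planted 4-fold changes were called, with or without a replicate block. In its absence 47.2% were called with no block, beside 10 false calls over 5 simulations, and 0% with the block. A lack of calls therefore says little about large changes too.

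With 2 arrays against 2, a two-sided exact permutation test of 1 value cannot go below p = 0.333, so none was run, and the number of arrays limits the precision. Groups of genes have counts and medians, with no test. Named members were those with the smallest p in each subunit (6 each), the brightest, the dimmest, those with the widest gap between numbers, 4 with disagreeing probe sets and 6 fixed genes; lists gave up to 3 genes each. Members and lists were chosen with earlier results of these data known. Alternatives covered the pseudocount, filter, scaling, probe set rule, eBayes trend, replicate block, subunit assignment and each array left out. A further 3 probe sets that name a member-like gene beside another gene were not used.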

Additional observations from a re-analysis of the deposited data

How the results depend on the processing

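The alternatives were all planned; for values that moved, the cause was not tested. No member was called under the 13 alternatives, which says nothing about stability, since a test of this size could not call such differences. The labels give the lines the same numbers but do not say that a number marks a shared culture or day. Deviations from the line means correlated between arrays of 1 number (r = 0.62 over probe sets, 0.69 over members). With the replicate block, 1 probe set of the whole table was called higher, no member was called, and the lowest adjusted p of a member was 0.58; at an unadjusted p under 0.05 the table then had 468 probe sets higher and 890 lower, against 70 and 192 without it, and 0 members in either direction. Quantile normalization gave medians of -0.038 for all members, -0.048 for the large and -0.003 for the small subunit. Median centring gave 0.117, 0.097 and 0.176, and averaging a gene's probe sets -0.04, -0.037 and -0.051, with large minus small at 0.015. Pseudocount 64 gave -0.027 for the large subunit, and moving Mrps30 and Mrps18a to it gave -0.037. The difference between numbers was -0.443 with quantile normalization and -0.507 with median centring. Leaving out 1 array gave -0.172 to 0.236 for all members, -0.198 to 0.25 for the large subunit, -0.112 to 0.226 for the small and -0.085 to 0.024 for their difference, all without a block.

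Of 28 named members, 12 kept their sign under all 13 alternatives (Mrpl24, Mrpl38, Mrpl4, Mrpl18, Mrpl45, Mrpl58, Mrps11, Mrps18c, Mrps5, Mrps26, Mrps7 and Mrps6). These are the 12 named for the smallest p in each subunit, so that choice favours a kept sign. Scaling turned Mrpl12 (0.038), Mrpl1 (0.083) and Mrps18a (0.045) under median centring and Mrpl13 (-0.0041) under quantile normalization. Averaging probe sets turned Mrpl51 (-0.083), Mrpl1 (0.047), Mrpl33 (-0.099) and Mrps2 (-0.065), and pseudocount 64 turned Mrpl36 (-0.001) and Mrpl33 (-0.02). Leaving out 1 array turned the sign in 15 of the 28, whose values then ran over these ranges: Mrpl39 (-0.088 to 0.2), Mrpl51 (-0.27 to 0.69), Mrpl12 (-0.44 to 0.26), Mrpl36 (-0.33 to 0.35), Mrpl1 (-0.45 to 0.37), Mrpl33 (-1.44 to 1.49), Mrps2 (-0.16 to 0.44), Mrps21 (-0.26 to 1.22), Mrpl55 (-0.37 to 0.081), Mrps18b (-0.026 to 0.3), Mrps30 (-0.63 to 0.11), Mrps12 (-0.059 to 0.67), Mrpl11 (-0.27 to 0.93), Mrpl13 (-0.4 to 0.42) and Mrpl15 (-0.14 to 0.25). In those fits the arm with a single array is assumed to vary like the other.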
